A study of Mus musculus with 8 samples.

Results

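The RNA-seq libraries of 7 sorted stromal populations of mouse bone marrow, of 8 samples in the series, were compared as 2 groups. The groups are those into which the study's ATAC-seq, an assay of open chromatin, placed the populations. Clusters 1, 3, 4 and 7 formed the first group (4 libraries) and clusters 2, 5 and 6 the second (3 libraries), and no expression value was used to form them. The input library of unsorted marrow cells was not used here. All 7 libraries are labelled as wild type C57BL/6J at 6 weeks of age, and the methods of the study name the substrain C57BL/6JJcl.

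Mesenchymal stromal cells (MSCs) are the non-haematopoietic cells of the marrow that can give rise to bone, cartilage and fat and that supply blood-forming cells with factors such as the chemokine Cxcl12. Stromal cells around vessels, cells committed to bone and cells committed to cartilage differ in the matrix and the secreted factors they make. Open chromatin marks the genes and regulatory elements that a cell can use, so populations grouped by it can be asked whether they also differ in their transcripts.

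The populations were sorted by flow cytometry as cells without CD31, CD45 and Ter119, the surface markers of endothelium, leukocytes and red cells. By the study's gating plots, cluster 1 was CD24-negative and positive for Sca-1 and CD39. Cluster 3 was positive for Ly-6C and CD24 without CD39 and CD54, cluster 4 positive for CD54 without Ly-6C and CD24, and cluster 7 positive for Sca-1 without CD54, CD24 and Ly-6C. In the other group, cluster 2 lacked Ly-6C, CD39 and CD24, cluster 5 was positive for CD54 without CD121b, CD24 and Ly-6C, and cluster 6 was positive for CD24 without Sca-1 and CD39. No marker of these gates divided the libraries into the 2 groups.

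Each population had 1 library, so the populations served as the replicates of a group, and every p-value here measures the spread between populations, not between mice or sorts. An exact two-sided permutation test on ranks, of 4 libraries against 3, cannot give less than 0.0571 for a single gene. The titles name the sorted clusters, whereas the extraction protocol in the labels is that of crushed marrow. Xist had between 0 and 5 counts and the Y-linked gene Ddx3y an RPKM (reads scaled to exon length and library size) between 13.9 and 25.4, so no library stood apart by sex.

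The counts on genes summed to 24205863, 27102715, 32549319 and 33238133 in clusters 1, 3, 4 and 7. They summed to 25349917, 12833648 and 31669132 in clusters 2, 5 and 6. The loci Lars2, mmu-mir-689-2 and ENSMUSG00000098178 were left out before scaling, since they held a very unequal share of the counts. That share was 34.8% in cluster 5 and 10.4% in cluster 2, and between 0.274% and 1.91% in the other 5 libraries. The cluster 5 library had the lowest count both before and after these loci were left out. It also stood apart in its red cell transcripts, described below. The counts of separating genes are given with and without it, for all genes and for each gene list.

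The labelled cell type was checked against its markers. Pdgfra, the receptor used to isolate MSCs, was detected in all 7 libraries, at RPKM 25.2, 18.7, 20.6 and 25.5 in clusters 1, 3, 4 and 7 and at 4.47, 11.3 and 9.57 in clusters 2, 5 and 6. Ptprc, which encodes CD45, ranged from 1.75 in cluster 3 to 8.94 in cluster 7. Pecam1, which encodes CD31, ranged from 1.56 in cluster 4 to 5.78 in cluster 5. Transcripts of the lineages that the sort was to remove were thus measured in every library, and in bulk RNA fewer cells of a type and less RNA per cell cannot be told apart.

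Of 18101 genes that passed the filter on low counts, 1289 had a higher RPKM in every library of clusters 1, 3, 4 and 7 than in every library of clusters 2, 5 and 6, which is 7.12% of the genes tested. The reverse held for 795 genes (4.39%). With edgeR's quasi-likelihood test no gene had an adjusted p-value below 0.05 in either direction (0.0% each). The lowest adjusted p-value was 0.135, shared by 77 genes. Unadjusted p-values below 0.05 were found for 1269 genes higher in clusters 1, 3, 4 and 7 (7.01%) and 1047 genes higher in clusters 2, 5 and 6 (5.78%).

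The 2 sets of separating genes differed in their gap and their level, but little in the size of their median log2 difference. The gap, taken as the distance in log2(RPKM + 1) between the lowest library of the higher group and the highest library of the lower group, had a median of 0.161 for the 1289 genes and 0.084 for the 795 genes. A gap of at least 2-fold in RPKM + 1 was found for 32 genes in the first direction (0.177%) and 3 genes in the second (0.0166%). The median RPKM over all libraries was 5.42 for the first set, 1.51 for the second and 2.7 for all genes tested. On the log2(RPKM + 1) scale, the same fold difference in RPKM gives a smaller gap at a lower level. The median log2 difference, clusters 1, 3, 4 and 7 minus clusters 2, 5 and 6, was 0.95 and -0.98 in the 2 sets and -0.05 over all genes.

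**Figure D1:**
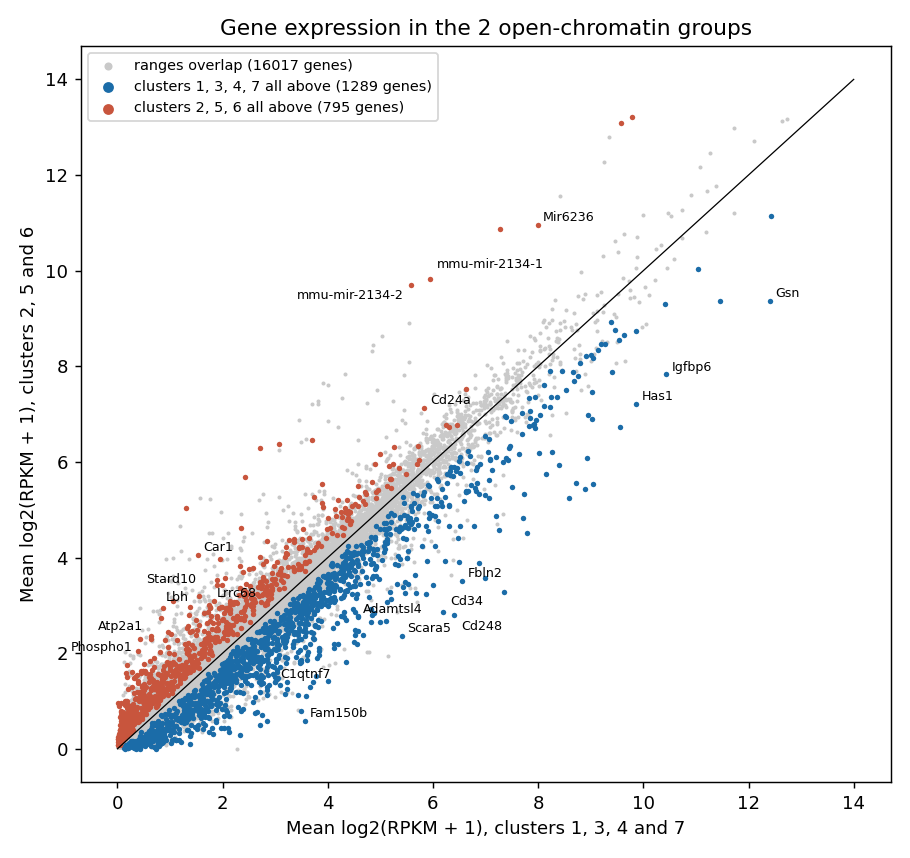
Mean log2(RPKM + 1) of each of 18101 genes in clusters 1, 3, 4 and 7 (horizontal axis) and in clusters 2, 5 and 6 (vertical axis), with genes whose groups do not overlap in blue (1289) and red (795) and the line of equal means in black. The blue genes reach further from the line among well expressed genes, and the red genes lie mostly at low values.

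The split of the separating genes depended on the scaling. With TMM factors 61.9% of them were higher in clusters 1, 3, 4 and 7, and with scaling to the total count the share was 79.8%. The counts were then 1713 genes (9.46%) in the first direction and 434 (2.4%) in the second. Scaling to the total count moved the median log2 difference of all genes from -0.05 to 0.05. Of the 1289 genes, 1130 still separated under it, and of the 795 genes, 396.

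More genes were called without the cluster 5 library. On the other 6, edgeR's test called 105 genes higher in clusters 1, 3, 4 and 7 (0.557%) and 135 higher in clusters 2 and 6 (0.717%) at an adjusted p-value below 0.05. The groups then did not overlap for 2442 genes (13.0%) in the first direction and 2195 genes (11.7%) in the second. DESeq2's Wald test on all 7 libraries called 474 genes (2.52% of the genes with an adjusted p-value) and 274 genes (1.46%). The edgeR test without a filter on low counts called 292 (0.8%) and 200 (0.548%).

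Among the 1289 genes higher in clusters 1, 3, 4 and 7, cluster 5 was the highest library of the other group for 569 and cluster 6 the lowest for 496. Among the 795 genes of the other direction, the highest library of clusters 1, 3, 4 and 7 was cluster 3 for 235, cluster 4 for 196, cluster 7 for 194 and cluster 1 for 170. The lowest library of clusters 2, 5 and 6 was then cluster 5 for 316, cluster 6 for 306 and cluster 2 for 173. With TMM factors cluster 5 was the library most often nearest to clusters 1, 3, 4 and 7 in both directions. In the second direction cluster 6 was close behind it.

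The 10 named genes with the largest gap in favour of clusters 1, 3, 4 and 7 were Cd34, Fam150b, Scara5, Gsn, Fbln2, Igfbp6, Has1, C1qtnf7, Cd248 and Adamtsl4. What each encodes is given with its values, and a theme shared by them was not tested. Cd34 (ENSMUSG00000016494, chromosome 1 of GRCm38 from 194938819 to 194961279) encodes a sialomucin of progenitor and fibroblast surfaces. Its RPKM was 109.9, 80.0, 59.2 and 50.6 in clusters 1, 3, 4 and 7, and 7.87, 14.5 and 1.76 in clusters 2, 5 and 6. The groups did not overlap, and the gap was 1.74 on the log2(RPKM + 1) scale. The log2 difference was 3.23 ± 0.67 (SE, n = 4 and 3, adjusted p = 0.145), and it passed the threshold without cluster 5 (adjusted p = 0.0464).

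Gsn (ENSMUSG00000026879, chromosome 2 from 35256380 to 35307892) encodes gelsolin, which severs actin filaments, and was the most abundant of the 10. Its RPKM was 6072, 3235, 7730 and 5713 in clusters 1, 3, 4 and 7, against 548.4, 1090 and 486.6 in clusters 2, 5 and 6. Cluster 3 was the lowest of the first group and cluster 5 the highest of the second. The log2 difference was 3.01 ± 0.61 (SE, adjusted p = 0.144).

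Has1 (ENSMUSG00000003665, chromosome 17 from 17843328 to 17855188), a synthase of hyaluronan, had an RPKM of 781.8, 1676, 930.9 and 624.3 in clusters 1, 3, 4 and 7, and of 99.1, 240.8 and 134.8 in clusters 2, 5 and 6. Cluster 3 was highest of all 7 and cluster 2 lowest. Its log2 difference was 2.67 ± 0.51 (SE, adjusted p = 0.135). Igfbp6, a secreted binding protein of insulin-like growth factors, was at 1225, 2152, 1198 and 1140 in the first group and at 420.0, 427.5 and 64.1 in the second. Cluster 6 was far below the other libraries and cluster 3 above them. The log2 difference of Igfbp6 was 2.23 ± 0.64 (SE, adjusted p = 0.202).

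C1qtnf7 (ENSMUSG00000061535, chromosome 5 from 43515538 to 43618803), a secreted protein of the C1q and tumour necrosis factor family, had the lowest unadjusted p-value of these genes in edgeR (1e-05, adjusted p = 0.135). Its RPKM was 8.33, 6.49, 6.71 and 6.43 in clusters 1, 3, 4 and 7 and 1.39, 1.66 and 1.91 in clusters 2, 5 and 6, so both groups were tight. Adamtsl4, a matrix protein associated with fibrillin microfibrils, was similarly tight, at 24.7, 30.02, 20.3 and 18.0 against 6.68, 5.78 and 5.02. Its log2 difference was 1.996 ± 0.253 (SE, adjusted p = 0.135).

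Of the remaining genes, Scara5, a ferritin receptor, was at 34.9, 59.2, 40.1 and 36.0 against 3.70, 10.7 and 1.46. Fam150b, a ligand of the receptor tyrosine kinase ALK, was at 4.68, 34.0, 11.6 and 6.74 against 0.828, 0.233 and 0.484. Fbln2, a fibulin of elastic fibres and basement membranes, was at 109.9, 90.1, 86.6 and 88.4 against 13.6, 30.5 and 2.22. In all 3 genes, no library of clusters 2, 5 and 6 reached the lowest library of the other group. The adjusted p-values of the 10 genes lay between 0.135 and 0.202. Without cluster 5, Scara5, Gsn, Has1, C1qtnf7, Cd248 and Adamtsl4 passed 0.05 beside Cd34.

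The 10 named genes with the largest gap in favour of clusters 2, 5 and 6 were Car1, Phospho1, Atp2a1, mmu-mir-2134-1, Stard10, Lbh, mmu-mir-2134-2, Mir6236, Cd24a and Lrrc68. Phospho1 (ENSMUSG00000050860, chromosome 11 from 95824499 to 95832140) encodes a phosphatase that supplies phosphate for mineralisation of bone and cartilage. Its RPKM was 3.46, 3.12 and 5.58 in clusters 2, 5 and 6, against 0.22, 1.15, 0.126 and 0.0859 in clusters 1, 3, 4 and 7. Cluster 3 was the highest of the first group and lay well above the other 3 libraries. The log2 difference was -3.38 ± 0.83 (SE, adjusted p = 0.159).

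Lbh (ENSMUSG00000024063, chromosome 17 from 72918305 to 72941942), a transcriptional cofactor of limb bud and heart, was at 14.8, 6.32 and 5.61 in clusters 2, 5 and 6 and at 2.2, 2.59, 1.64 and 1.48 in clusters 1, 3, 4 and 7. Cluster 2 was the highest, and the log2 difference was -2.18 ± 0.39 (SE, adjusted p = 0.135). Atp2a1, a calcium pump of the sarcoplasmic and endoplasmic reticulum, was at 3.29, 3.57 and 4.94 against 0.481, 1.26, 0.211 and 0.41. Stard10, a lipid transfer protein, was at 8.02, 7.80 and 6.81 against 2.53, 3.23, 3.17 and 1.61. Lrrc68 was at 6.42, 5.05 and 9.14 against 2.48, 2.82, 2.03 and 2.23. In each of these genes every library of clusters 1, 3, 4 and 7 was below every library of clusters 2, 5 and 6. Lbh and Lrrc68 passed the threshold without cluster 5 (adjusted p = 0.0416 and 0.0315 in edgeR).

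Cd24a (ENSMUSG00000047139, chromosome 10 from 43578284 to 43584265) encodes the surface protein CD24, which was used in the gates. It was at 128.7, 118.1 and 176.1 in clusters 2, 5 and 6 and at 49.98, 51.6, 55.1 and 69.8 in clusters 1, 3, 4 and 7. Cluster 3, which was sorted as CD24-positive, was at the level of the CD24-negative clusters of its group, whereas clusters 2 and 5, sorted as CD24-negative, were above it. The log2 difference was -1.32 ± 0.26 (SE, adjusted p = 0.136).

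Car1, a carbonic anhydrase of red cells, was at 8.92, 48.0 and 8.46 in clusters 2, 5 and 6 and at 3.57, 3.03, 0.0511 and 2.54 in clusters 1, 3, 4 and 7. Car1 was highest in cluster 5, the library with the most haemoglobin transcripts, whose part in this difference was not tested. The other 2 genes with a gap of at least 2-fold in this direction were Gm15915 and the T cell receptor segment Trdj1, which the naming rule leaves out and which are named here after their values were seen. The small loci mmu-mir-2134-1, mmu-mir-2134-2 and Mir6236 were highest in cluster 5 (4179, 4632 and 4095) and cluster 2 (895.0, 799.3 and 2691), as was Lars2, one of the loci left out (31000 and 6802). In clusters 1, 3, 4 and 7 these 3 loci ranged from 12.8 to 423.3 and in cluster 6 from 156.7 to 723.0. They are short, and reads shared with similar loci could be counted on them.

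**Figure D2:**
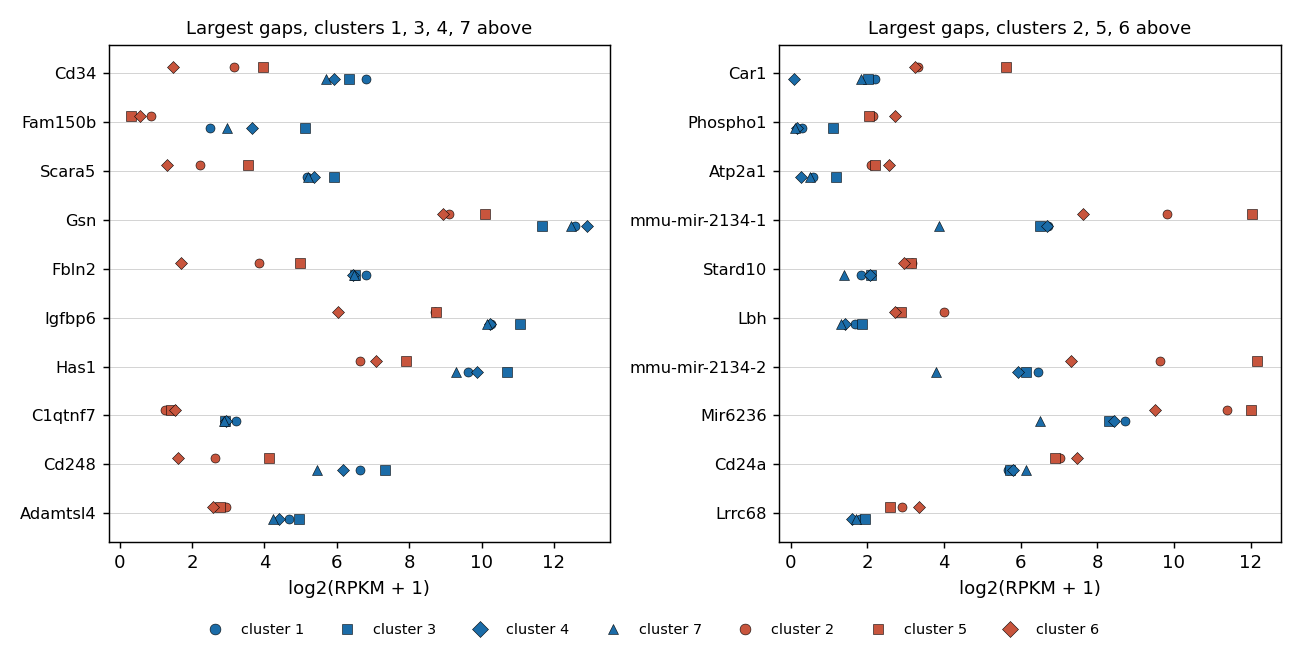
log2(RPKM + 1) (horizontal axes) of the 10 named genes with the largest gap in each direction, 1 symbol for each library, clusters 1, 3, 4 and 7 in blue and clusters 2, 5 and 6 in red. In the left panel the red symbols of Cd34 and Cd248 lie apart from the blue ones but spread over several log2 units, and in the right panel the 3 small loci are highest in clusters 5 and 2.

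As the groups were defined by open chromatin, the sequence before the start of separating genes is shown for 2 genes of each direction. The sequences are the 250 bases before the RefSeq start on GRCm38.p6, all on the plus strand, and capitals mark matches to 5 short motifs searched on both strands. The motifs were AP-1 (TGANTCA), RUNX (TGTGGT), EBF (CCCNNGGG), the GC box (GGGCGG) and the CCAAT box (CCAAT). Cd34 (chr1:194938571-194938820) and Igfbp6 (chr15:102143936-102144185) were higher in clusters 1, 3, 4 and 7, and Phospho1 (chr11:95824250-95824499) and Lbh (chr17:72918055-72918304) in clusters 2, 5 and 6.
Cd34: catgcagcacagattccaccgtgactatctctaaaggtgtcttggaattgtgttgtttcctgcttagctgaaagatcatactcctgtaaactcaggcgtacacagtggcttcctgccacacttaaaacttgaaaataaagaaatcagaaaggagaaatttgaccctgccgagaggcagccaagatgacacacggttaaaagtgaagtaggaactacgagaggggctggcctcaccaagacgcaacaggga
Igfbp6: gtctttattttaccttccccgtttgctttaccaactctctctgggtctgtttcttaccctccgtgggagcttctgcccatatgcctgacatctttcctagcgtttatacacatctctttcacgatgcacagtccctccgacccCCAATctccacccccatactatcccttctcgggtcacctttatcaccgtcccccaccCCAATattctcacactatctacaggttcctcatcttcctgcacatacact
Phospho1: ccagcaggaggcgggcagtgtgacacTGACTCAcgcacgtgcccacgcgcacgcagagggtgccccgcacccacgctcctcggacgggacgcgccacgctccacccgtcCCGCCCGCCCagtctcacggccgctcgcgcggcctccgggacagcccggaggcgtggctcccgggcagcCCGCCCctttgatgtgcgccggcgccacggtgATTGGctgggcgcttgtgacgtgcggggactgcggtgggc
Lbh: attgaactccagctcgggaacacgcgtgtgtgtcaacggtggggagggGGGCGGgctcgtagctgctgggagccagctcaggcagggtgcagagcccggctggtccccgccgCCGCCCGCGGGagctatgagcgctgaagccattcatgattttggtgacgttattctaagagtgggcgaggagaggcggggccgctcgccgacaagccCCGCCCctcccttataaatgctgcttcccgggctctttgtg
Among 32851 such windows of 27025 genes in the RefSeq table, 6.7% held the AP-1 letters, 14% RUNX, 11.8% EBF, 32.7% the GC box and 33.8% the CCAAT box. Among 13834 windows of 10845 genes tested here, the shares were 5.0%, 11.2%, 15.9%, 54.1% and 34.7% in the same order. The window of Cd34 held none of the motifs. That of Igfbp6 held 2 CCAAT boxes, the farther from position -107 to -103 and the nearer from -50 to -46, counted from the RefSeq start. For Igfbp6 that start lies before the first base of the gene as counted here, 102144362. The windows of Cd34, Phospho1 and Lbh end at or next to the first counted base. The window of Phospho1 held an AP-1 match, 3 GC boxes, of which 2 overlap each other, and a CCAAT box. The window of Lbh held 3 GC boxes and an EBF match that overlaps the second of them. The GC content was 46.4% and 49.6% for Cd34 and Igfbp6 and 75.6% and 64.8% for Phospho1 and Lbh. These chosen genes do not stand for their sets. Over the separating genes with a window, the median GC content was 59.2% in the first direction and 60.0% in the second. It was 59.2% over the genes tested. A match to such letters is a description and not a binding site. Only 129 of the 203 genes with a gap of at least 0.5 in favour of clusters 1, 3, 4 and 7 had a window in the table, and motif shares over the separating genes are not given. The shares over the genes tested are partial as well, since 10845 of 18101 genes had a window.

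Gene lists of stromal lineages, cell states and other cell types were then set beside the 2 groups. For each list, the members whose groups do not overlap are counted and the median log2 difference of its members is given, next to the 7.12% and 4.39% of all genes tested that separate and the median of -0.05 over all genes. These counts describe the lists and test nothing.

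**Figure D3:**
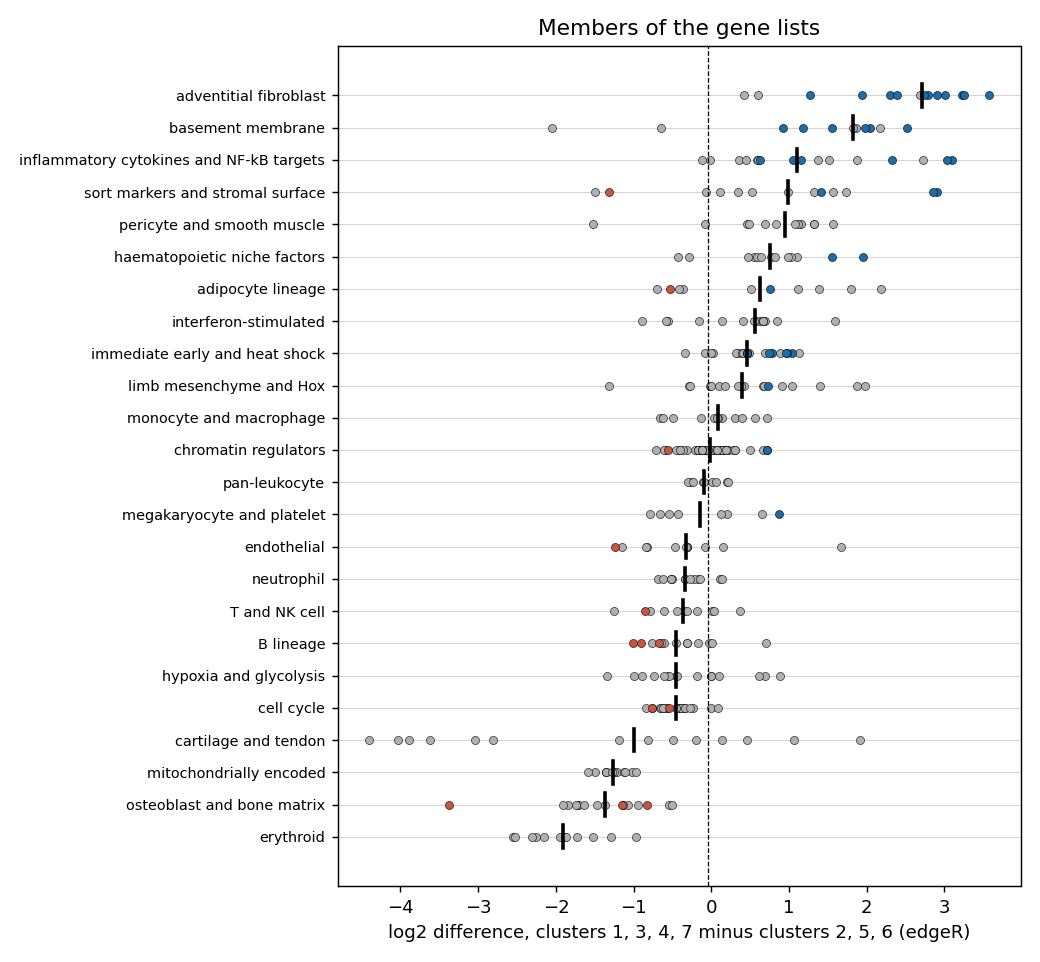
log2 difference between the groups (horizontal axis, edgeR, clusters 1, 3, 4 and 7 minus clusters 2, 5 and 6) of each tested member of 24 gene lists, with the list's median as a black bar and the median of all genes as a broken line. Members whose groups do not overlap are blue (clusters 1, 3, 4 and 7 above) or red (clusters 2, 5 and 6 above), and most blue members belong to the adventitial fibroblast, basement membrane, cytokine and immediate early lists.

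The list furthest towards clusters 1, 3, 4 and 7 was that of adventitial fibroblasts, the stromal cells of the outer sheath of vessels. Of its 14 members 11 separated in this direction and 0 in the other, and the median log2 difference was 2.71. The 11 genes were Pi16, Cd34, Ly6a, Dpt, Clec3b, Gsn, Dcn, Mfap5, Col14a1, Fbn1 and Cd248. The summed RPKM of the list was 12770, 12000, 15990 and 14550 in clusters 1, 3, 4 and 7 and 2775, 5303 and 3920 in clusters 2, 5 and 6.

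Pi16, a secreted peptidase inhibitor and marker of these fibroblasts, was at RPKM 27.0, 10.2, 23.7 and 10.6 in clusters 1, 3, 4 and 7 and at 2.44, 6.44 and 2.17 in clusters 2, 5 and 6. Dpt, the matrix protein dermatopontin, was at 322.6, 185.9, 280.3 and 139.0 against 23.1, 72.5 and 5.82. Both passed the threshold without cluster 5 (adjusted p = 0.0419 for Pi16 and 0.0421 for Dpt in edgeR). Mfap5, a microfibril protein, was at 238.7, 188.6, 181.3 and 86.6 against 15.3, 39.3 and 0.407. Cluster 7 was the lowest of the first group for Mfap5, Dpt and Cd248, and cluster 6 the lowest of all 7 libraries for each of the 11 genes but Dcn. Cd248, the surface glycoprotein endosialin, was at 98.9, 160.7, 71.2 and 43.0 against 5.26, 16.4 and 2.03, a log2 difference of 3.58 ± 0.76 (SE, adjusted p = 0.145). The list held 11 separating members also without cluster 5, where 13.0% of all genes separated in this direction.

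Dcn, the proteoglycan decorin, was among the most abundant transcripts of all libraries, at 4084, 6050, 5946 and 6206 against 1616, 2876 and 2461. Its groups did not overlap, with a log2 difference of 1.27 ± 0.47 (SE, adjusted p = 0.311). Ly6a, which encodes Sca-1 and was itself a sort marker, was at 530.2, 962.7, 447.4 and 218.1 against 80.1, 131.0 and 6.40. Cluster 3, whose gate did not use Sca-1, was above both Sca-1-gated clusters, 1 and 7, and cluster 4 was above cluster 7. The members that overlapped were Dpp4, Lum and Col15a1. Dpp4 was at 6.92, 21.6, 1.12 and 4.72 against 0.919, 0.909 and 2.17.

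Basement membranes are the sheets of laminin, collagen IV and nidogen beneath epithelium and endothelium and around mural cells. Of 11 members, 6 separated with clusters 1, 3, 4 and 7 above and 0 in the other direction, with a median log2 difference of 1.82. They were the laminin chains Lama4, Lama5, Lamb1, Lamb2 and Lamc1 and the nidogen Nid1. Lamc1 (ENSMUSG00000026478, chromosome 1 from 153218922 to 153332786), the shared chain of most laminins, was at 42.3, 23.2, 22.2 and 25.7 in clusters 1, 3, 4 and 7 and at 5.80, 10.1 and 4.74 in clusters 2, 5 and 6. The log2 difference was 2.04 ± 0.37 (SE, adjusted p = 0.135). Lamb2 was at 73.2, 75.6, 74.3 and 88.1 against 22.0, 35.9 and 45.3, and Nid1 at 100.8, 57.2, 70.7 and 73.0 against 13.0, 39.3 and 5.19. Cluster 2 was the lowest library for Lamb2 and cluster 6 for Lamc1 and Nid1. On the 6 libraries without cluster 5, Lamb1, Lamc1 and Nid1 passed the threshold in edgeR (adjusted p = 0.0269, 0.0329 and 0.036).

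Col4a1 and Col4a2, the main collagen IV chains, overlapped through clusters 3 and 5. Col4a1 was at 132.2, 38.7, 102.1 and 88.1 against 12.8, 42.1 and 5.28. Nid2 and Hspg2, which encodes perlecan, had the opposite sign. Nid2 was at 15.8, 7.29, 17.6 and 10.4 in clusters 1, 3, 4 and 7 and at 34.4, 2.81 and 122.0 in clusters 2, 5 and 6, so it was highest in clusters 6 and 2 and lowest in cluster 5. Without cluster 5, 9 of the 11 members separated with clusters 1, 3, 4 and 7 above (13.0% of all genes did) and 2, Nid2 and Hspg2, with clusters 2 and 6 above (11.7% of all genes).

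Cytokines and targets of NF-kB, the transcription factor of inflammatory signalling, leaned the same way. Of 16 members, 6 separated with clusters 1, 3, 4 and 7 above and 0 in the other direction, with a median log2 difference of 1.10. Ccl2 (ENSMUSG00000035385, chromosome 11 from 82035571 to 82037453), a chemokine that recruits monocytes, was at 357.5, 1306, 246.7 and 188.4 in clusters 1, 3, 4 and 7 and at 49.1, 128.7 and 7.28 in clusters 2, 5 and 6. Cluster 3 was the highest library for Ccl2, as it was for Ccl7 and Cxcl1. Ccl7 was at 561.5, 1128, 464.0 and 263.5 against 74.6, 138.2 and 8.72, with a log2 difference of 3.04 ± 0.87 (SE, adjusted p = 0.199). Cxcl1, which attracts neutrophils, was at 616.2, 1143, 863.6 and 527.3 against 90.1, 346.1 and 36.6, and it passed the threshold without cluster 5 (adjusted p = 0.0365 in edgeR).

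The remaining 3 separating members encode regulators of NF-kB itself. Tnfaip3 was at 20.3, 16.6, 17.3 and 21.3 against 6.32, 9.91 and 9.17, a log2 difference of 1.16 ± 0.24 (SE, adjusted p = 0.145). Nfkbia was at 976.4, 1018, 947.7 and 771.1 against 453.0, 623.8 and 268.5, and Nfkbiz at 87.2, 64.2, 100.4 and 103.7 against 51.9, 63.0 and 57.6. For Nfkbiz the gap was small, since cluster 3 lay just above cluster 5. Il6 was at 70.4, 43.3, 196.8 and 132.6 against 18.0, 66.3 and 6.49, so cluster 5 overlapped the first group. The number of separating members became 10 without cluster 5, where 13.0% of all genes separated in this direction, and 9 without cluster 3, where 10.6% did.

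Immediate early genes are induced within minutes of stimulation of a cell. Of 20 members of this list, which also holds heat shock genes, 7 separated with clusters 1, 3, 4 and 7 above and 0 in the other direction, with a median log2 difference of 0.46. They were Fos, Jun, Junb, Atf3, Ier3, Dusp1 and Klf6. Fos, a subunit of AP-1, was at 2330, 1417, 2306 and 2516 in clusters 1, 3, 4 and 7 and at 1157, 984.7 and 997.9 in clusters 2, 5 and 6. Cluster 3 lay between the other 3 libraries of its group and clusters 2, 5 and 6. The log2 difference was 1.03 ± 0.40 (SE, adjusted p = 0.33). Junb was at 712.6, 641.4, 907.5 and 934.9 against 338.7, 391.9 and 490.7. The log2 differences of these 7 genes were smaller than those of the separating fibroblast genes. Transcripts of the list were abundant in all libraries, with a summed RPKM between 5083 in cluster 5 and 9271 in cluster 7. The count of separating members was 9 without cluster 5, 10 without cluster 3 and 11 without cluster 6, where 13.0%, 10.6% and 15.9% of all genes separated in this direction.

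Bone genes leaned in the opposite direction, but none passed edgeR's test on all 7 libraries and the groups mostly overlapped. Phospho1 was 1 of 41 named genes that passed with DESeq2's Wald test (adjusted p = 0.00136). It was also 1 of 38 that passed with edgeR without the filter on low counts (adjusted p = 0.0076). All 17 members of the osteoblast and bone matrix list had a negative log2 difference, with a median of -1.37, while 3 members separated. These were Phospho1, described above, and the transcription factors Runx2 and Dlx5. Runx2 (ENSMUSG00000039153, chromosome 17 from 44495987 to 44814797), which is required for osteoblast formation, was at 11.3, 6.66 and 10.6 in clusters 2, 5 and 6 and at 1.84, 4.51, 5.94 and 4.85 in clusters 1, 3, 4 and 7. Cluster 1 was the lowest, and the log2 difference was -1.15 ± 0.38 (SE, adjusted p = 0.257). Dlx5 was at 7.61, 10.8 and 10.8 against 1.15, 6.42, 7.15 and 7.27, with cluster 1 again the lowest.

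Bglap, Dmp1 and Ifitm5 overlapped through cluster 3, which was above the other 3 libraries of its group. Bglap (ENSMUSG00000074483, chromosome 3 from 88383501 to 88384464), which encodes osteocalcin, was at 228.4, 14490, 197.6 and 266.3 in clusters 1, 3, 4 and 7 and at 3246, 7669 and 14180 in clusters 2, 5 and 6. Cluster 3 was thus the highest of all libraries, and the other 3 of its group were below clusters 2, 5 and 6. Dmp1, a protein of osteocytes, was at 3.16, 209.9, 10.3 and 10.3 against 36.6, 57.5 and 533.1, and Ifitm5 at 2.67, 160.0, 4.50 and 5.40 against 41.6, 75.9 and 215.6. Without cluster 3, 10 of the 17 members separated with clusters 2, 5 and 6 above, where the share of all genes was 7.22%. The share in the first direction was then 10.6%. No other omission of a library gave as many separating members. Reads of Bglap and the neighbouring Bglap2 may be shared, since the genes are near copies.

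Alpl, the alkaline phosphatase of bone, was at 23.8, 88.1, 83.7 and 96.1 against 126.3, 74.9 and 519.3, so here cluster 5 overlapped the first group. Sp7, Alpl and Ibsp separated beside Phospho1, Runx2 and Dlx5 when cluster 5 was left out, which made 6 of the 17 members against 11.7% of all genes. Col1a1 and Sparc were the most abundant members. Col1a1 was at 3577, 7038, 2037 and 2507 in clusters 1, 3, 4 and 7 and at 3511, 7529 and 20510 in clusters 2, 5 and 6. Cluster 6 was highest for most bone genes, and Sparc had a log2 difference of -0.50 that became 0.03 without cluster 6.

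Cartilage genes divided the second group itself. No member of the cartilage and tendon list (14 genes) separated, and the median log2 difference was -1.0. Col2a1, the collagen of cartilage, was at 8802 and 13550 in clusters 2 and 6 but at 228.6 in cluster 5. In clusters 1, 3, 4 and 7 it was at 172.3, 138.4, 3163 and 178.4. Col10a1, the collagen of hypertrophic cartilage, was at 614.0 and 479.1 in clusters 2 and 6, at 9.81 in cluster 5 and at 10.4, 4.47, 40.5 and 14.03 in clusters 1, 3, 4 and 7. Acan, Col9a1 and Matn3 were likewise highest in clusters 6 and 2, with cluster 4 next. Without cluster 5, 7 of the 14 members separated with clusters 2 and 6 above, where the share of all genes was 11.7%.

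Prg4, the lubricin of joint surfaces, Tnmd, a tendon gene, Scx and Cilp did not follow this pattern. Prg4 was at 466.5, 2566, 1122 and 308.8 against 231.2, 196.5 and 458.3. Tnmd was at 205.7, 54.2, 215.2 and 173.9 against 82.6, 143.8 and 6.87. Scx was at 34.5, 27.8 and 9.58 in clusters 2, 5 and 6, and Cilp at 142.9, 191.4 and 870.5. For each of these genes, libraries of the 2 groups overlapped.

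**Figure D4:**
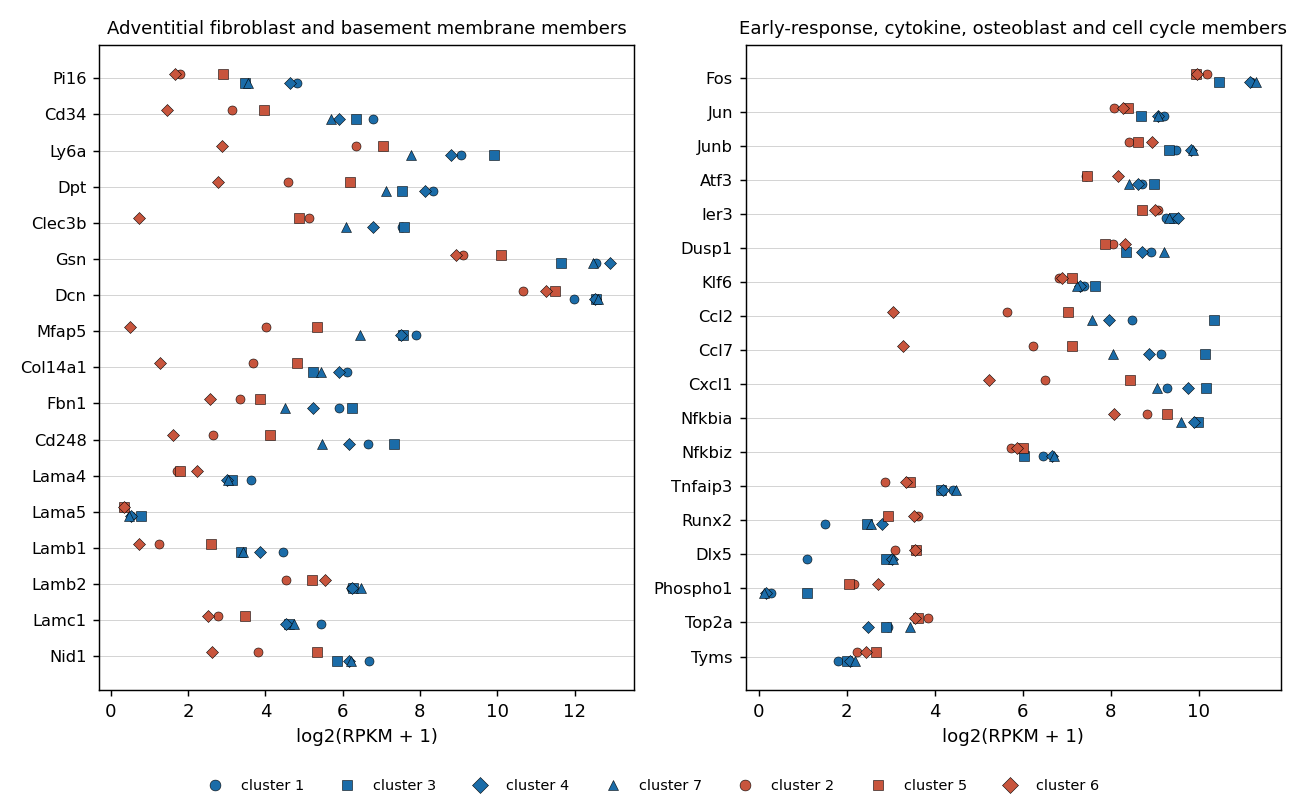
log2(RPKM + 1) (horizontal axes) in each library of the separating members of the adventitial fibroblast and basement membrane lists (left) and of the immediate early, cytokine, osteoblast and cell cycle lists (right), clusters 1, 3, 4 and 7 in blue and clusters 2, 5 and 6 in red. The red symbols of cluster 6 lie furthest to the left for most fibroblast genes, and the immediate early genes have narrow gaps at high levels.

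The haematopoietic niche factors overlapped for the most part. Csf1 and Il34, the 2 ligands of the macrophage growth factor receptor, separated with clusters 1, 3, 4 and 7 above, out of 13 members, and 0 separated in the other direction. Csf1 was at 32.2, 77.2, 36.6 and 24.2 in clusters 1, 3, 4 and 7 and at 5.79, 18.9 and 8.49 in clusters 2, 5 and 6. Il34 was at 7.55, 9.42, 8.62 and 7.996 against 2.16, 4.61 and 1.93, with a log2 difference of 1.56 ± 0.35 (SE, adjusted p = 0.145), and it passed the threshold without cluster 5 (adjusted p = 0.0236 in edgeR). The median log2 difference of the list was 0.76.

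Cxcl12, which retains blood-forming cells in the marrow, was at 30.1, 12.1, 144.6 and 46.8 against 11.98, 63.2 and 6.48. Cluster 5 exceeded clusters 1, 3 and 7 here. Kitl, which encodes stem cell factor, was at 4.82, 2.81, 4.93 and 3.59 against 1.58, 5.53 and 1.26, with cluster 5 the highest library. For Lepr and Vcam1, markers of perivascular stroma, cluster 5 lay above clusters 1 and 3 and below clusters 4 and 7. Without cluster 5, 7 of the 13 members separated with clusters 1, 3, 4 and 7 above, against 13.0% of all genes. Cxcl12, Kitl and Vcam1 were among them, and Foxc1 alone separated with clusters 2 and 6 above (11.7% of all genes).

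Of 10 adipocyte genes tested, Cebpb separated with clusters 1, 3, 4 and 7 above and Lipe with clusters 2, 5 and 6 above, and the median log2 difference was 0.63. Plin1 and Cidec did not pass the filter. Cebpb, a transcription factor also of inflammatory responses, was at 409.7, 343.4, 673.3 and 574.5 against 282.0, 324.4 and 282.0. Adipoq, the adiponectin gene, was at 2.99, 3.76, 30.7 and 4.23 against 1.69, 10.2 and 0.588, and was highest in clusters 4 and 5. Apoe, the most abundant member beside Cebpb, was highest in cluster 4 (535.9). Once cluster 5 was left out, 4 of the 11 genes that then passed the filter separated with clusters 1, 3, 4 and 7 above, against 13.0% of all genes. They were Cebpb, Adipoq, Plin1, which had at most 17 counts in a library, and Pparg, the master transcription factor of fat cells, while Lipe alone separated in the other direction (11.7% of all genes).

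None of 12 pericyte and smooth muscle genes separated, although 10 had a positive log2 difference (median 0.95). Acta2, smooth muscle actin, was at 55.5, 10.6, 41.4 and 81.8 against 28.9, 21.7 and 6.02. Myl9 was at 53.3, 10.7, 67.4 and 52.9 against 25.9, 47.2 and 5.10. Cluster 3 was the low library of its group for both. Without cluster 3, 7 of the 12 members separated with the first group above, against 10.6% of all genes. Leaving out cluster 1, 2, 4, 6 or 7 gave 0 separating members in either direction. Leaving out cluster 5 instead gave 1 separating member of 12 in each direction, Pdgfrb and Cspg4, shares below the 13.0% and 11.7% of all genes.

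Among 13 sort markers and stromal surface genes, Ly6a, Ly6c1 and Pdgfra separated with clusters 1, 3, 4 and 7 above and Cd24a with clusters 2, 5 and 6 above, with a median log2 difference of 0.99. Ly6a, Ly6c1 and Cd24a encode proteins of the gates. Ly6c1 was at 189.5, 423.6, 126.7 and 51.9 against 33.6, 40.8 and 8.28. Cluster 3, gated as Ly-6C-positive, was the highest. Clusters 1, 4 and 7 were also above every library of the other group, although clusters 4 and 7 were gated without Ly-6C. Pdgfra had a log2 difference of 1.41 ± 0.34 (SE, adjusted p = 0.154). Icam1, which encodes CD54, was at 66.5, 11.8, 245.7 and 144.5 against 13.9, 66.9 and 25.3 and overlapped. Cluster 7, gated without CD54, was above cluster 5, gated as CD54-positive. Without the cluster 5 library Pdgfrb, Eng and Vcam1 joined the first direction, which made 6 of 13 against 13.0% of all genes, and Nt5e, which encodes CD73, joined Cd24a in the second (11.7% of all genes). The count in the first direction was 5 without cluster 3 (10.6% of all genes).

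The transcription factors of limb mesenchyme and the Hox genes gave 1 separating gene of 18, Hoxd8, at 5.85, 5.35, 3.37 and 4.06 against 3.19, 3.16 and 2.06. The median log2 difference was 0.40. Prrx2 and Twist1, the most abundant members, overlapped. Twist1 was at 27.0, 28.6, 25.5 and 24.7 against 22.3, 34.9 and 17.3, so it overlapped through cluster 5 alone. This count depended on single libraries. It was 7 of 18 without cluster 5 (Prrx1, Prrx2, Twist1, Twist2, Tbx18, Meox2 and Hoxd8), where 13.0% of all genes separated in this direction. It was 5 without cluster 2 and 5 without cluster 3, where 9.61% and 10.6% of all genes did. The members that joined were Hox genes without cluster 2 and Prrx2, Twist2, Meox1 and Meox2 without cluster 3.

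Of 21 cell cycle genes none passed edgeR's test on all 7 libraries, and 20, all but Pcna, had a negative log2 difference. The median of the list was -0.46, and 2 genes separated with clusters 2, 5 and 6 above. Top2a, the topoisomerase of dividing cells, was at 13.3, 11.3 and 10.7 in clusters 2, 5 and 6 and at 6.63, 6.45, 4.61 and 9.91 in clusters 1, 3, 4 and 7. Tyms, thymidylate synthase, was at 3.71, 5.39 and 4.39 against 2.51, 3.0, 3.22 and 3.55. Cluster 7 was the highest of its group for both. Without cluster 7, 13 members separated with clusters 2, 5 and 6 above, where the share of all genes was 7.14% (8.51% in the other direction), and 0 did so when the counts were scaled to the total count. The count was 3 without cluster 5, and 5 without cluster 2 or cluster 6, against 11.7%, 7.06% and 12.4% of all genes. Cluster 7 also had the highest summed level of pan-leukocyte genes, 1198 against 368.7 to 1122 in the other libraries, whose part in these values was not tested.

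Of 47 chromatin regulators, the subunits and enzymes that open or close chromatin, 1 separated in each direction and the median log2 difference was -0.02. Cbx7, a Polycomb subunit, was at 1.84, 1.67, 1.58 and 2.73 in clusters 1, 3, 4 and 7 and at 1.03, 1.5 and 1.07 in clusters 2, 5 and 6. Smarcc1, a subunit of the SWI/SNF remodeller, was at 9.22, 8.40 and 8.79 in clusters 2, 5 and 6 and at 6.48, 5.84, 4.71 and 6.96 in clusters 1, 3, 4 and 7. The 2 most abundant members, Hdac1 and Hdac2, had log2 differences of -0.01 and -0.05. The shares of 1 in 47 are below those of all genes tested. Leaving out cluster 5 gave 3 and 2 separating members, also below the 13.0% and 11.7% of all genes. Leaving out cluster 6 gave 7 and 6, where 15.9% and 12.4% of all genes separated.

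Interferon-stimulated genes (14, median 0.56) and genes of hypoxia and glycolysis (16, median -0.45) had no separating member on all 7 libraries. Isg15 was highest in cluster 5, at 56.8, and lowest in cluster 6, at 4.08. Ldha was at 513.5 and 465.1 in clusters 2 and 6 and at 242.9 in cluster 5, against 236.4, 231.6, 384.9 and 334.0 in clusters 1, 3, 4 and 7. Cluster 5 thus lay among the first group for Ldha, apart from clusters 2 and 6.

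Both lists changed when cluster 5 was left out. Of the 14 interferon-stimulated genes 7 then separated with clusters 1, 3, 4 and 7 above, against 13.0% of all genes, and 0 in the other direction. They were Ifit1, Oas1a, Oasl2, Usp18, Bst2, Rtp4 and Irf7, a transcription factor of the interferon response. Of the 16 genes of hypoxia and glycolysis 7 separated with clusters 2 and 6 above, against 11.7% of all genes, and 2, Adm and Ndrg1, with clusters 1, 3, 4 and 7 above (13.0% of all genes). The 7 were the glycolytic enzymes Pgk1, Ldha, Eno1, Tpi1 and Pgam1 with Bnip3, a protein of mitochondrial turnover, and Pdk1, a kinase that restrains pyruvate oxidation.

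Markers of other cell types were measured in the same libraries. None of 12 erythroid genes separated, but their median log2 difference was -1.91. The summed RPKM of the erythroid list was 103100 in cluster 5, and 13100, 7587, 2349 and 7167 in clusters 1, 3, 4 and 7, 13630 in cluster 2 and 2053 in cluster 6. Hba-a1, the most abundant member, was at 45700 in cluster 5 and at 5040, 3156, 881.9 and 2611 in clusters 1, 3, 4 and 7. Its log2 difference was -2.56, and 0.01 without cluster 5. The mitochondrially encoded genes (13, median -1.26, none separating) summed to 39130 in cluster 5 and to between 3872 and 9629 elsewhere. The log2 difference of mt-Co1 was -1.25, and 0.30 without cluster 5. The sign of these 2 genes thus depended on the cluster 5 library, and no member of either list separated without it. Without cluster 6, 4 erythroid and 2 mitochondrially encoded genes separated with clusters 2 and 5 above, against 12.4% of all genes.

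Neutrophil genes (13, median -0.34) and pan-leukocyte genes (9, median -0.10) had no separating member. S100a9 was the most abundant neutrophil marker, at 6035, 4996, 7117 and 9978 in clusters 1, 3, 4 and 7 and at 7113, 16600 and 6605 in clusters 2, 5 and 6. Monocyte and macrophage genes (12, median 0.08) had none either, and Lyz2, their most abundant gene, was highest in cluster 7 (3611). No marker of these lists was at 0 in all 7 libraries. None of the 3 lists had a separating member without cluster 5 either, and without cluster 7 there were 3 of 13 neutrophil genes with clusters 2, 5 and 6 above (7.14% of all genes).

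In the B lineage list 3 of 13 genes separated with clusters 2, 5 and 6 above, and 0 in the other direction (median -0.45). Vpreb3, a surrogate light chain of precursor B cells, was at 47.6, 33.3 and 28.8 against 18.5, 10.2, 18.5 and 25.3. Mzb1 was at 11.1, 10.4 and 9.91 against 7.84, 2.87, 5.75 and 9.70, and Rag1 was below 0.5 in every library. None of the 3 separated when the counts were scaled to the total count. The number was 3 without cluster 5 as well, where 11.7% of all genes separated in this direction. Without cluster 7 it was 7 of 13, where 7.14% of all genes separated in this direction, since Cd79a, Cd79b, Vpreb1 and Igll1 joined. No other omission of a library gave as many. Lck separated in the same direction among 11 T and NK cell genes tested (median -0.36), at 2.41, 2.36 and 2.19 against 1.53, 1.00, 0.959 and 1.64. In that list the number was 1 of 11 without cluster 5, below the 11.7% of all genes, and 3 of 11 without cluster 7 (7.14% of all genes). The summed level was between 52.5 and 159.5 for the B lineage list and between 28.7 and 72.0 for the T and NK cell list, and the share of these cells in the differences between the groups was not tested.

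Erg separated among 12 endothelial genes, with clusters 2, 5 and 6 above (1.89, 1.39 and 2.53, against 0.547, 0.495, 1.34 and 0.906), and the median of the list was -0.32. Erg is also a transcription factor of cartilage. The summed endothelial level was between 11.5 in cluster 6 and 57.1 in cluster 5, with Plvap the most abundant gene. Itga2b separated among 8 megakaryocyte genes with clusters 1, 3, 4 and 7 above (5.14, 4.03, 3.73 and 3.89, against 2.23, 3.48 and 1.25), and the list had a median of -0.15. Its most abundant member, Pf4, ranged from 2.93 in cluster 6 to 69.3 in cluster 3. Without cluster 5 the endothelial list had 1 separating member in each direction, Tek and Erg, and the megakaryocyte list 1, Itga2b, with clusters 1, 3, 4 and 7 above (13.0% and 11.7% of all genes in the 2 directions). Erg had a narrow gap, and without cluster 6 it no longer separated while Vwf did (12.4% of all genes).

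**Figure D5:**
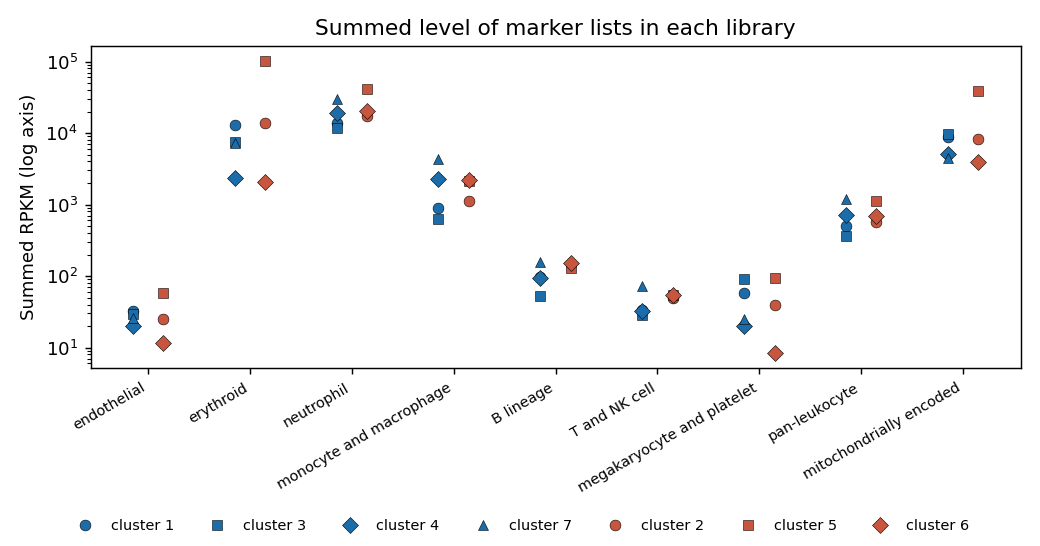
Summed RPKM (vertical log axis) of the markers of 8 other cell types and of the mitochondrially encoded genes in each library, clusters 1, 3, 4 and 7 in blue and clusters 2, 5 and 6 in red. The erythroid and mitochondrial sums are highest in cluster 5 (103100 and 39130), and the groups overlap for every list.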

How the data were processed

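RNA-seq of 7 sorted populations was used, 1 library each. The deposited files hold unnormalized counts and exon lengths of 49315 Ensembl genes. The submitters' processing notes name Partek 2.2, TopHat2 and mm9, but the files carry GRCm38 positions. The counter, its strand setting and its treatment of shared reads are not given in the sources used here. Symbols were matched for 38501 genes, and 1 list member, Ahsp, was not matched.

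Lars2, mmu-mir-689-2 and ENSMUSG00000098178 were dropped, and edgeR (4.0.16) TMM factors, its filter by expression and its quasi-likelihood test were applied to the counts, with Benjamini-Hochberg adjustment over 18101 genes. RPKM values were computed from TMM-scaled library sizes. Each SE was derived from the fit, as the absolute log2 difference divided by the square root of the quasi-likelihood F statistic. It is not a standard error computed directly over the libraries. The depth of 12833648 to 33238133 counts limits precision most in cluster 5. DESeq2 (1.42.0), limma (3.58.1), other scalings and filters and the omission of each library were tried as alternatives (R 4.3.3, Python 3.11.15). The scripts were tested on simulated data.

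Named genes are, in each direction, up to 15 called genes by p-value and up to 10 by gap, with a highest RPKM of at least 2 and without receptor segments, predicted genes or pseudogenes, plus the separating members and the 2 most abundant members of each list. The comparison, the members and the lists were chosen with earlier results of these data known.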

Additional observations from a re-analysis of the deposited data

Results flagged for a closer look

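For 12 of 103 named genes, 1 library of clusters 1, 3, 4 and 7 lay far from the other 3, by Dixon's criterion on log2(RPKM + 1). Chance flags about 1 in 20 such groups among unselected genes, whereas the named genes were selected. The group of 3 libraries was not examined in this way. Cluster 1 was high for Fbln2 (RPKM 110, the other 3 libraries 86.6 to 90.1) and C1qtnf7 (8.33, the others 6.43 to 6.71), and low for Dlx5 (1.15, the others 6.42 to 7.27) and Dcn (4080, the others 5950 to 6210). Cluster 3 was high for Igfbp6 (2150, the others 1140 to 1220) and Phospho1 (1.15, the others 0.0859 to 0.22), and low for Myl9 (10.7, the others 52.9 to 67.4) and Fos (1420, the others 2310 to 2520). Cluster 4 was high for Col2a1 (3160, the others 138 to 178). Cluster 7 was high for Nkg7, a granule gene of cytotoxic lymphocytes (58.8, the others 25 to 26.2), and low for mmu-mir-2134-1 (13.5, the others 89.9 to 105) and Bst2 (27.8, the others 40.7 to 43.2). For Fbln2, Dcn, Igfbp6, C1qtnf7, Phospho1, Dlx5, Fos and mmu-mir-2134-1, the groups did not overlap. Most of these genes were named because their groups do not overlap, so this does not measure the effect of the flagged library.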

How the results depend on the processing

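The number of genes at an adjusted p-value below 0.05 was 0 in both directions with edgeR on all 7 libraries, also with DESeq2 size factors, total count scaling, robust spread, limma, the 3 loci kept or the mitochondrial and haemoglobin genes left out. It was 474 and 274 with DESeq2's Wald test and 292 and 200 without a filter on low counts. Leaving out each library in turn gave 0 to 105 genes higher in clusters 1, 3, 4 and 7 and 0 to 135 higher in clusters 2, 5 and 6. The highest values were those without cluster 5, and without cluster 3 Grrp1 alone passed. The groups did not overlap for 1495 to 3009 genes in the first direction and 958 to 2346 in the second when 1 library was left out, highest without cluster 6, where fewer libraries also make non-overlap easier. With total count scaling and limma on log2(RPKM + 1), 434 and 431 genes separated in the second direction. Of 1541 recomputed log2 differences of the 103 named genes, 95 newly passed 0.05 in the same direction, 41 with DESeq2, 38 without the filter and 16 without cluster 5, and 43 changed sign. Over the omitted libraries, log2 differences that changed sign ranged from -0.764 to 0.0318 for Sparc, -0.0597 to 0.425 for Twist1, -0.194 to 0.756 for Plvap, -1.49 to 0.745 for Cldn5, -3.05 to 0.0112 for Hba-a1, -0.744 to 0.0415 for S100a9, -0.537 to 0.424 for Lyz2, -0.29 to 0.726 for Cd14, -0.396 to 1.24 for Pf4, -1.56 to 1.34 for Ppbp, -0.606 to 0.243 for Tyrobp, -0.564 to 0.144 for Fcer1g, -1.04 to 0.686 for Isg15, -0.025 to 0.222 for Pcna, -0.143 to 0.126 for Aldoa, -0.0782 to 0.157 for Hdac1, -0.187 to 0.128 for Hdac2, -1.65 to 0.301 for mt-Co1 and -1.66 to 0.327 for mt-Cytb. With limma, Lyz2 was at -0.0922 and Isg15 at 0.123. Aldoa was at 0.0932 with total count scaling, 0.000702 with DESeq2, 0.11 with limma, 0.0497 without the filter, 0.00937 with the 3 loci kept and 0.0106 without mitochondrial and haemoglobin genes. In the same order but for DESeq2, Hdac1 was at 0.104, 0.0947, 0.048, 0.00283 and 0.00397. Hdac2 was at 0.0369 with total count scaling, 0.0713 with limma and 0.00584 without the filter. The cause of these changes was not tested. No paired analysis was possible because the groups share no replicate numbers.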
